A study of Esox lucius with 13 samples.

Results

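The nose and gill of 1 northern pike (*Esox lucius*) were compared directly, transcript by transcript, in 2 of the 13 RNA-seq libraries of the study. Both organs are surface epithelia bathed in water, and the question asked was which epithelial, ciliary, neural and ion transport genes separated them. A transcript was measured where at least 1 of the libraries held 10 or more fragments: 21065 of the 38696 reference transcripts met this minimum, 10842 held 1 to 9 fragments at most and 6789 had no fragment in either library. Gene names were at hand for 1225 transcripts, of which 550 were measured, so the named genes below are a sample of both organs and not their full repertoire.

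All libraries came from a single wild-type juvenile male, and each tissue (nose, gill, brain, eye, gut, head kidney, heart, kidney, liver, muscle, stomach, spleen and testis) was sequenced once. The fish was wild and untreated, and it was frozen whole before the organs were sampled. With 1 library per organ no test between nose and gill could be made, and neither differences between fish nor those between preparations were measured. Each ratio therefore carries an exact conditional-binomial (Clopper-Pearson) 95% interval that covers counting error only, and each fragment stands for an amplified read pair, not an independent molecule. Because these are bulk libraries, fewer cells of a type and less RNA per cell cannot be told apart.

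The fish nose holds an olfactory epithelium in which ciliated and microvillous sensory neurons lie among supporting, mucous and motile ciliated cells, and the microvillous neurons are known for a transduction channel of the TRPC2 type. The gill is covered by pavement and mucous cells over a dense bed of vessels and blood spaces, and its ionocytes exchange salts, acid and ammonia with the water. Ionocytes are known for sodium pumps and proton pumps, and in zebrafish they arise under the control of FoxI transcription factors.

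The nose library held 17686055 fragments and the gill library 19073857, within the range of 17240414 to 22300517 over all 13. At least 1 fragment was found for 29262 transcripts in nose and 28031 in gill, and the 100 most abundant transcripts took 37.8% and 40.7% of the fragments. The middle ratio over all measured transcripts was 1.19 in favour of nose (log2 0.25). The ratios and calls below were not adjusted for this offset and are read against a ratio of 1. The 2-fold limit thus lay nearer to the middle ratio on the nose side than on the gill side. Levels are given in FPKM, fragments per 1000 bases of transcript and per 1000000 fragments of the library, and the ratio of FPKM equals that of the fragments over the library totals. A transcript is called higher in an organ where the whole interval of its ratio lay past 2-fold. Under this rule 3555 transcripts (16.9%) were higher in nose and 2090 (9.92%) were higher in gill. Nose accounted for 63.0% of the calls when libraries were scaled by their totals, for 49.5% when they were scaled by the median of ratios and for 47.9% with TMM factors, so the balance between the organs depended on the scaling.

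**Figure D1:**
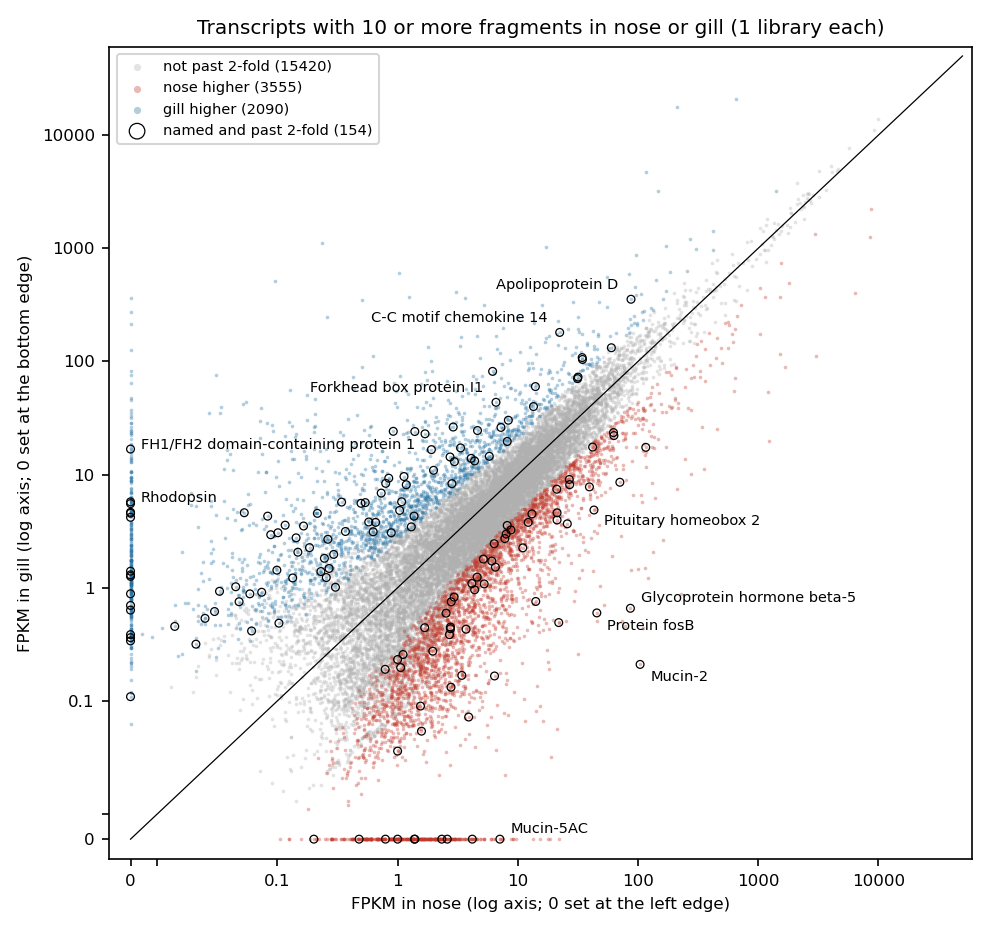
Level of each of the 21065 measured transcripts in nose (horizontal axis) and gill (vertical axis) in FPKM, on log axes with 0 set at the edge. The line marks equal levels, red points are the 3555 transcripts higher in nose, blue points the 2090 higher in gill and grey points the 15420 that were not past 2-fold. Open circles mark the 154 named transcripts past 2-fold, which lie on both sides of the line.

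Fragments of transcripts that belong to other organs were unevenly spread between the 2 libraries. A set of 42 transcripts with 10000 or more fragments in liver was at least 100 times higher there than in every other library, and it had 8912 fragments in gill against 866 in nose. Relative to their share of the liver library, these were 1157 per 1000000 in gill and 121 per 1000000 in nose. The 16 transcripts particular to eye in the same sense gave 498 fragments in gill and 164 in nose, and the 22 of gut gave 434 and 117. The order was the other way for 3 brain transcripts, with 12 fragments in gill and 150 in nose, and for 6 heart transcripts, with 174 and 288. Those of muscle (2646 per 1000000 in gill and 2022 in nose) and stomach (552 and 531) were closer together, and the 2 each of kidney and head kidney gave fewer than 10 fragments in either library. The part of such RNA in the ratios below was not tested.

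Of the 550 named transcripts, 63 (11.5%) were higher in nose and 91 (16.5%) in gill, against 16.9% and 9.92% of all measured transcripts. Across the gene lists together, 113 named members were measured, 11 of them higher in nose and 31 higher in gill, and their median log2 ratio was -0.17 against 0.25 for all measured transcripts. A member with fewer than 10 fragments in an organ could be measured only through the other organ, so calls of such members are a description. A name can be carried by several transcripts. Copies of mucins, immunoglobulins, titin, myosins and ribosomal proteins may resemble each other enough for the mapping to divide their fragments, which was not tested. Single transcripts of these families are therefore uncertain.

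Epithelial genes separated the organs in both directions. In the list of junction, keratin and mucus genes, 14 of 25 named members were measured. Of these 4 (28.6%) were higher in nose and 3 (21.4%) in gill, against 11.5% and 16.5% of the measured named transcripts. The median log2 ratio was 0.09 (-0.18 with the median of ratios). The largest ratio among named transcripts with fragments in both libraries belonged to a 2248 bp transcript of Mucin-2, a gel-forming secreted mucin. It had 4118 fragments in nose and 9 in gill, or 104 and 0.210 FPKM, a ratio of 493 (259.7 to 1079.9). The eye library alone was higher, with 142 FPKM, and the median of the other 11 tissues was 0.0700. A second, 597 bp transcript named Mucin-2 lay in the opposite direction. It had 364 fragments in nose (34.5 FPKM) and 1180 in gill (104 FPKM), 3.01-fold higher in gill (2.67 to 3.39), and gill was its highest tissue. Mucin-5AC, another secreted mucin, was read only from a 383 bp transcript, with 48 fragments in nose (7.09 FPKM) and 0 in gill. Against a floor of 3 fragments the nose level was at least 17.3-fold higher. Later folds worded as at least a value use the same floor, and the lower limit of the exact interval was smaller, here 13.5.

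Growth and cytoskeletal genes of epithelia also differed. Proheparin-binding EGF-like growth factor, a membrane-bound ligand of the EGF receptor, had 856 fragments in nose (21.2 FPKM) and 173 in gill (3.97 FPKM), 5.34-fold higher in nose (4.53 to 6.32). Calmodulin-regulated spectrin-associated protein 3, which holds the minus ends of microtubules in epithelial cells, had 74 and 13 fragments (2.75 and 0.449 FPKM) and a ratio of 6.14 (3.38 to 12.1). Brain exceeded both organs for the latter gene, with 38.9 FPKM.

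Of a pair of cornifelin transcripts and a lipid transporter, 2 were higher in gill. The cornifelin homolog, named for a protein of the cornified envelope of mammalian skin, had 64 fragments in nose (2.97 FPKM) and 302 in gill (13 FPKM), 4.38-fold higher in gill (3.33 to 5.82). The transcript named cornifelin itself had 222 and 548 fragments, with a nose over gill ratio of 0.437 (0.372 to 0.512) whose interval reached past 2-fold only in part. ATP-binding cassette sub-family A member 12, a lipid transporter known from mammalian keratinocytes, had 252 fragments in nose (1.99 FPKM) and 1481 in gill (10.9 FPKM), 5.45-fold higher in gill (4.76 to 6.25). Gill was its highest tissue and nose the next, while the median of the other 11 tissues was 0.00700 FPKM.

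Several epithelial members were not past 2-fold. The polarity protein Partitioning defective 6 homolog alpha had 540 fragments in nose and 898 in gill (ratio 0.649, 0.582 to 0.722), and Claudin-11, a tight junction protein, had 62 and 72 (0.929, 0.650 to 1.32). The scaffold protein AHNAK was carried by 2 transcripts that differed from each other: a 3674 bp transcript had 14 fragments in nose and 318 in gill, 21.1-fold higher in gill (12.4 to 39.0), whereas a 2029 bp transcript had 862 and 530 (nose over gill 1.75, 1.57 to 1.96).

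The few measured ion and acid-base transport genes lay towards gill, and most were not past 2-fold. Of 21 named members 5 were measured. Of these 2 were higher in gill and none in nose, against 16.5% and 11.5% of the measured named transcripts. So few members do not allow a comparison of shares. The median log2 ratio was -1.94, against 0.25 for all measured transcripts. This median was the value of 1 member, ATP-sensitive inward rectifier potassium channel 8, with 8 fragments in nose and 33 in gill. Forkhead box protein I1 had 191 fragments in nose (6.58 FPKM) and 1361 in gill (43.5 FPKM), 6.61-fold higher in gill (5.67 to 7.73). Kidney followed gill with 16.8 FPKM, so both exceeded nose for this ionocyte transcription factor. A 349 bp transcript of the sodium/potassium-transporting ATPase subunit alpha-1, the sodium pump, had 7 fragments in nose (1.13 FPKM) and 64 in gill (9.61 FPKM), 8.48-fold higher in gill (3.89 to 21.9). Outside gill and nose its highest level was 0.290 FPKM, from 2 fragments in kidney, and brain, heart and muscle had no fragment of it. Whether this short transcript stands for the whole gene was not tested.

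Other members of this list were near parity or less certain. The proton pump subunit V-type proton ATPase 116 kDa subunit a isoform 1 had 1314 fragments in nose (19.2 FPKM) and 1592 in gill (21.5 FPKM), a nose over gill ratio of 0.890 (0.827 to 0.958). Carbonic anhydrase 12, which hydrates carbon dioxide at the cell surface, had 24 and 29 fragments (3.11 and 3.49 FPKM), and its interval of 0.497 to 1.59 allowed either organ to be higher. ATP-sensitive inward rectifier potassium channel 8 had 8 and 33 fragments (0.180 and 0.688 FPKM). Its nose over gill ratio of 0.261 (0.104 to 0.577) was not past 2-fold with library totals but was with the median of ratios (0.217, 0.0864 to 0.478), and spleen far exceeded both organs at 109.9 FPKM.

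Among 7 measured carriers of other solutes, 1 was higher in nose and 1, the lipid transporter above, in gill. Each is 14.3%, near the 11.5% and 16.5% of the measured named transcripts. Solute carrier family 2, facilitated glucose transporter member 5, a fructose transporter, had 41 fragments in nose (4.18 FPKM) and 0 in gill, at least 14.7-fold higher in nose. Its next tissue was testis, with 1.32 FPKM.

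Motile cilia genes had few fragments in either library. Of 38 named members, 4 were measured and 13 had no fragment in either library. Summed over all 38, nose held 165 fragments and gill 157, or 9.33 and 8.23 per 1000000, within a range over the 13 libraries from 2.15 in liver to 129 in kidney. The 2 called members lay in opposite directions. Of the measured named transcripts 11.5% were higher in nose and 16.5% in gill, and 4 measured members are too few to compare with these shares. Dynein heavy chain 1, axonemal, a motor of the inner dynein arm, had 16 fragments in nose (0.201 FPKM) and 0 in gill, at least 5.75-fold higher in nose, but kidney held 4.46 FPKM. Axonemal dynein light chain domain-containing protein 1 had 3 and 22 fragments (0.0610 and 0.415 FPKM), 6.80-fold higher in gill (2.04 to 35.5). Spleen held more of the latter, with 2.79 FPKM.

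Genes of the ciliary base and of transport within cilia also serve the immotile sensory cilium. Summed over all 9 named members they came to 37.8 fragments per 1000000 in nose and 24.6 in gill. None of the 6 measured members of 9 was past 2-fold, and neither were 73.2% of all measured transcripts. The median log2 ratio of the 6 members was 0.49 (-0.19 with names from the first supplementary table only). Tetratricopeptide repeat protein 21B, part of the retrograde transport complex, had 352 fragments in nose (4.03 FPKM) and 197 in gill (2.09 FPKM), a ratio of 1.93 (1.61 to 2.31). Protein fantom, of the transition zone, had 184 and 123 fragments (ratio 1.61, 1.28 to 2.04), and Transmembrane protein 231, of the same zone, had 25 and 44 (0.613, 0.359 to 1.02).

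**Figure D2:**
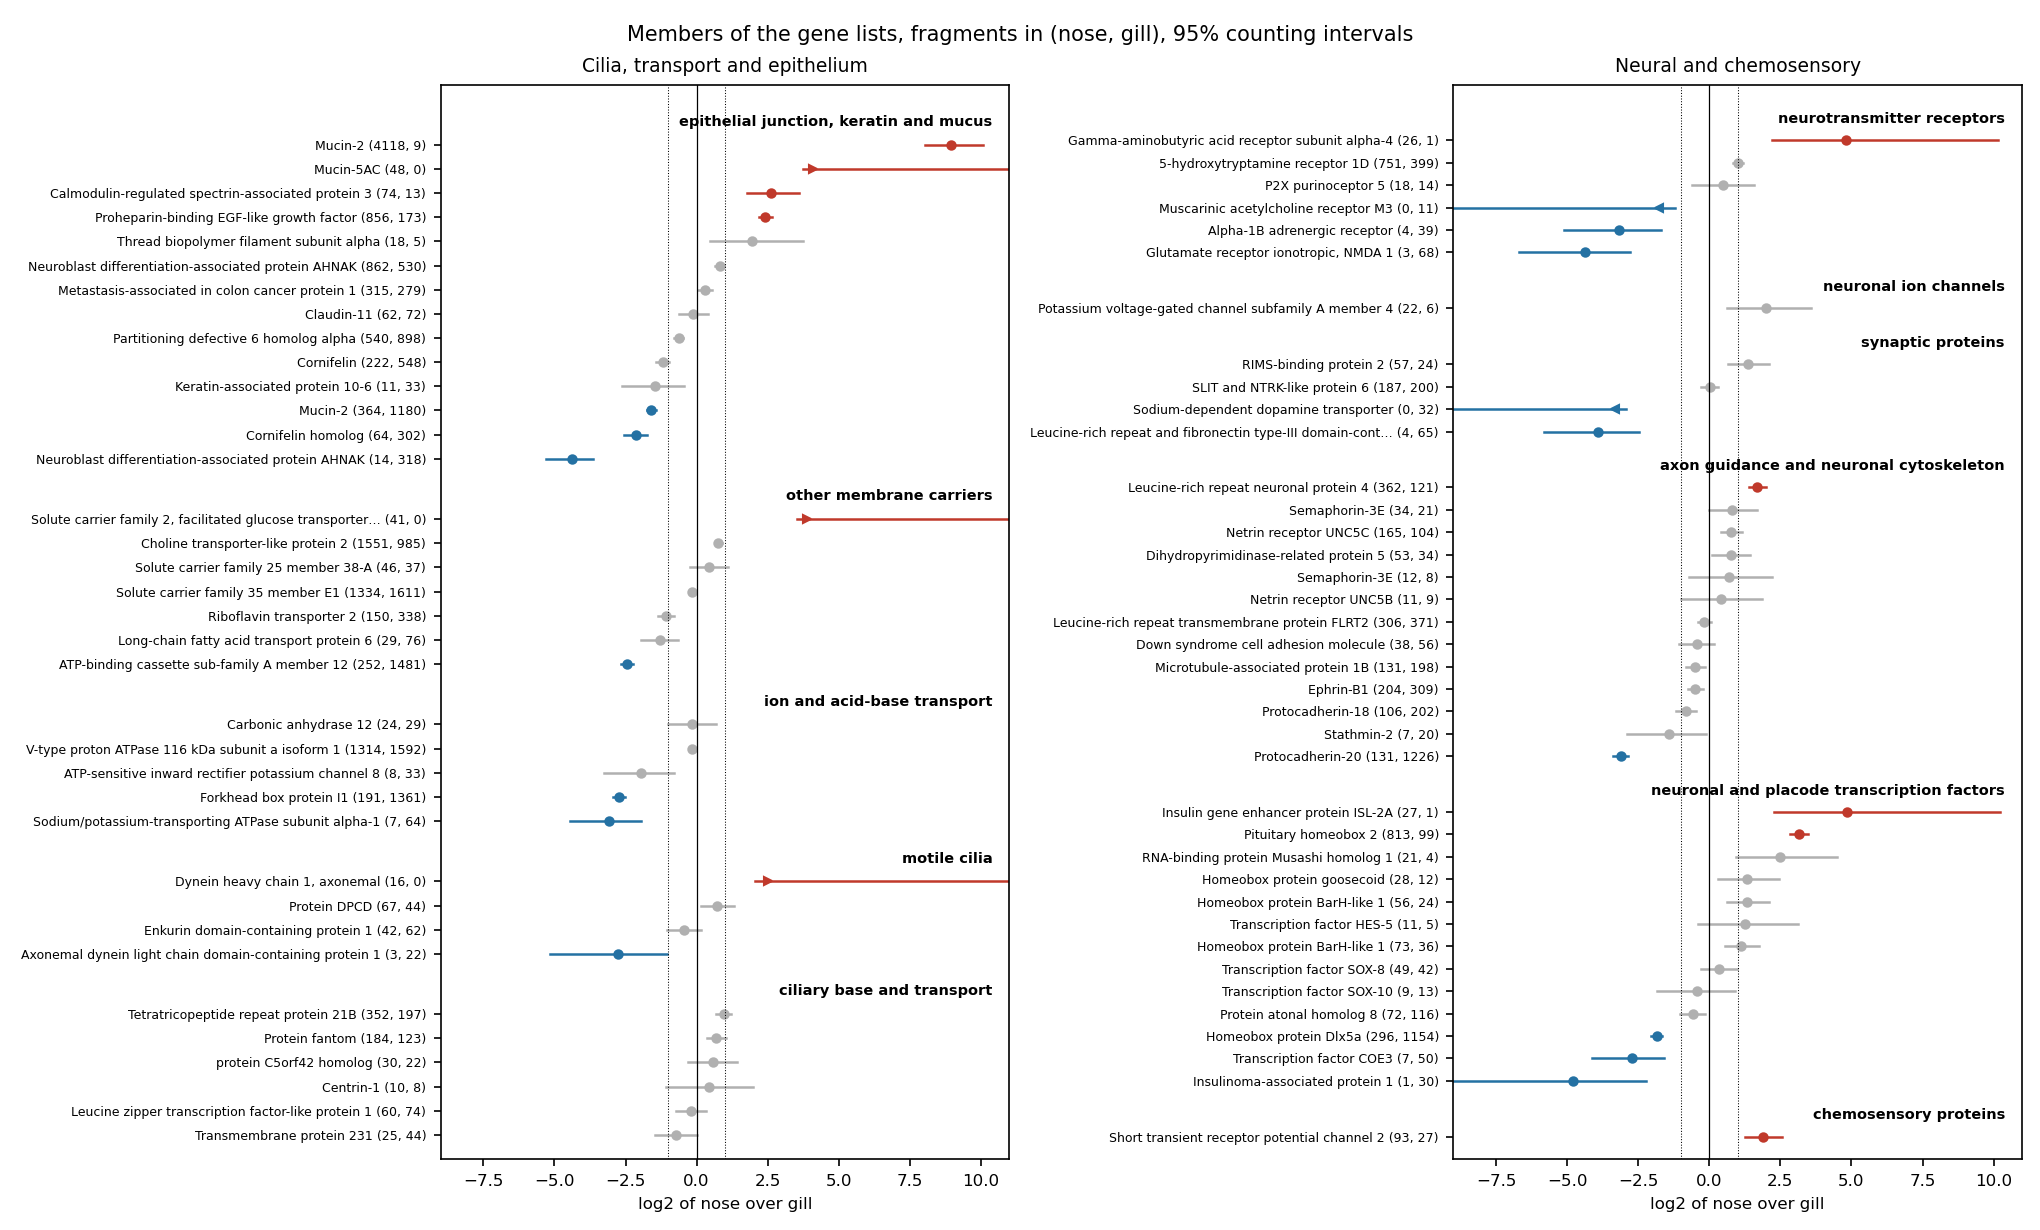
Log2 of the nose over gill ratio of each measured member of the cilia, transport, epithelial, neural and chemosensory lists, with 95% counting intervals and the fragments in nose and gill in brackets. Red points are higher in nose, blue points higher in gill, grey points not past 2-fold, triangles are bounds against a floor of 3 fragments, dotted lines mark 2-fold, and intervals that leave the axis end at its edge. Mucin-2 appears on both sides, at 493-fold towards nose and 3.01-fold towards gill.

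The nose label was checked against chemosensory markers, and little could be read there. Of 6 named chemosensory transcripts, 4 had no fragment in either organ, among them Olfactory receptor 2AT4 and Taste receptor type 1 member 3. The transcript named Olfactory receptor 2AT4 had 74 fragments in gut and 0 in nose, so its name did not go with nose in these libraries. The extracellular calcium-sensing receptor had 2 fragments in nose and 3 in gill. Short transient receptor potential channel 2, the transduction channel of microvillous olfactory neurons, had 93 fragments in nose (2.79 FPKM) and 27 in gill (0.751 FPKM), 3.71-fold higher in nose (2.40 to 5.93). This call was lost with the median of ratios (3.08, 1.99 to 4.91). Testis (10.6 FPKM) and kidney (3.92 FPKM) held more than nose. A second transcript of this name was among those with no fragment in either organ. The name of the called transcript came from the second supplementary table, and with names from the first table only this list had no call in nose.

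Neural genes were called in both directions. Of 193 named members of the 5 neuronal lists, 37 were measured and 89 had no fragment in either organ. Among the measured members 4 (10.8%) were higher in nose and 9 (24.3%) in gill. The shares were 11.5% and 16.5% of the measured named transcripts, and 16.9% and 9.92% of all measured transcripts. The nose share was thus near that of named transcripts. The median log2 ratio was 0.33 against 0.25 for all transcripts. The limit on members with fewer than 10 fragments in an organ applies to these calls. Summed over all named members, neurotransmitter receptors came to 47.2 fragments per 1000000 in nose and 29.3 in gill, and neuronal ion channels to 2.32 and 1.89. Synaptic proteins came to 16.3 and 19.2, axon guidance genes to 89.3 and 142, and the transcription factors to 83.3 and 83.8. Single transcripts weighed heavily in such sums, which therefore do not describe the lists as a whole. 5-hydroxytryptamine receptor 1D held 751 of the 835 receptor fragments in nose and 399 of the 559 in gill. Protocadherin-20 held 131 of the 1579 axon guidance fragments in nose and 1226 of the 2704 in gill.

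Receptors and synaptic proteins accounted for 6 of these calls and were of low level throughout. Gamma-aminobutyric acid receptor subunit alpha-4, part of an inhibitory chloride channel, had 26 fragments in nose (1.00 FPKM) and 1 in gill (0.0360 FPKM), a ratio of 28 (4.61 to 1149.6). Glutamate receptor ionotropic, NMDA 1, the obligatory subunit of an excitatory receptor, lay the other way, with 3 and 68 fragments (0.0250 and 0.536 FPKM), 21.0-fold higher in gill (6.89 to 104). Brain was the highest tissue for both, at 18.2 FPKM for the first and 45.2 FPKM for the second.

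The other receptors and transporters past 2-fold were higher in gill, whereas the most abundant receptor was not called. The alpha-1B adrenergic receptor had 4 fragments in nose and 39 in gill (0.134 and 1.22 FPKM), 9.04-fold higher in gill (3.26 to 34.8), with 2.45 FPKM in brain. The sodium-dependent dopamine transporter had 0 and 32 fragments (1.30 FPKM in gill), at least 9.89-fold higher, and the muscarinic acetylcholine receptor M3 had 0 and 11 (1.26 FPKM in gill), at least 3.40-fold higher. The highest other levels were 1.69 FPKM in head kidney for the first and 2.27 FPKM in eye for the second. The synaptic adhesion protein Leucine-rich repeat and fibronectin type-III domain-containing protein 2 had 4 and 65 fragments (0.0590 and 0.883 FPKM), 15.1-fold higher in gill (5.61 to 57.0), with 14.7 FPKM in brain. The serotonin receptor 5-hydroxytryptamine receptor 1D, at 751 and 399 fragments (12.1 and 5.98 FPKM), was the most abundant measured receptor of the list, and its ratio of 2.03 (1.80 to 2.30) was not past 2-fold. In neither organ was a voltage-gated channel of the list abundant: 1 of 36 was measured, Potassium voltage-gated channel subfamily A member 4, with 22 and 6 fragments (ratio 3.95, 1.55 to 11.9).

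Of 13 measured cell adhesion and axon guidance members 11 (84.6%) were not past 2-fold, against 73.2% of all measured transcripts. Leucine-rich repeat neuronal protein 4 had 362 fragments in nose (12.2 FPKM) and 121 in gill (3.78 FPKM), 3.23-fold higher in nose (2.62 to 4.0), and nose was its highest tissue. Protocadherin-20, a homophilic adhesion protein, had 131 and 1226 fragments (1.91 and 16.6 FPKM), 8.68-fold higher in gill (7.24 to 10.5), and gill was its highest tissue, with eye next among the other 11 at 2.83 FPKM.

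Of 13 measured neuronal and placode transcription factors, 2 (15.4%) were higher in nose and 3 (23.1%) in gill, against 11.5% and 16.5% of the measured named transcripts. Pituitary homeobox 2, which patterns the oral, eye and pituitary region in vertebrate embryos, had 813 fragments in nose (43.0 FPKM) and 99 in gill (4.86 FPKM), a ratio of 8.86 (7.18 to 11). Nose also exceeded its next highest tissue, eye, by 8.49-fold (6.94 to 10.5). Homeobox protein Dlx5a, of a family known in the olfactory placode and the gill arches, had 296 and 1154 fragments (8.34 and 30.2 FPKM), 3.61-fold higher in gill (3.18 to 4.12). Both organs carried both genes, and only brain lay between gill and nose for Dlx5a, and only eye between nose and gill for Pituitary homeobox 2.

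Factors of neuronal and endocrine cells were called from few fragments. Insulin gene enhancer protein ISL-2A, a LIM homeodomain factor of motor and sensory neurons, had 27 fragments in nose and 1 in gill (1.58 and 0.0540 FPKM), a ratio of 29.1 (4.80 to 1192), with 3.37 FPKM in spleen. Insulinoma-associated protein 1, a zinc finger factor of neuroendocrine cells, had 1 and 30 fragments (0.0330 and 0.930 FPKM), 27.8-fold higher in gill (4.62 to 1135), with 6.03 FPKM in brain. Transcription factor COE3, a factor of neuronal differentiation, had 7 and 50 fragments (0.575 and 3.81 FPKM), 6.62-fold higher in gill (2.99 to 17.3). The other 8 measured members of the list were not past 2-fold. Both transcripts of Homeobox protein BarH-like 1 had more fragments in nose, with 73 against 36 and 56 against 24, and Protein atonal homolog 8 had 72 against 116.

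Markers of immune, vascular, connective and muscle tissue were examined because either organ contains such cells. None of them was called higher in nose, as were 11.5% of the measured named transcripts. Of 19 measured immune proteins 5 (26.3%) were higher in gill, against 16.5% of the measured named transcripts. Their median log2 ratio was -0.51 (0.37 with pairs by exact equality of the 13 fragment values). C-C motif chemokine 14 had 226 fragments in nose (22.3 FPKM) and 1971 in gill (180.3 FPKM), 8.09-fold higher in gill (7.04 to 9.32), and gill was its highest tissue, followed by head kidney at 129 FPKM. Interleukin-8, a neutrophil chemokine, had 29 and 98 fragments (1.37 and 4.29 FPKM), 3.13-fold higher in gill (2.05 to 4.92), and Toll-like receptor 6 had 15 and 78 (0.255 and 1.23 FPKM), 4.82-fold higher in gill (2.75 to 9.02). Spleen exceeded gill for both, with 26.9 and 9.62 FPKM. Of the B cell genes, Immunoglobulin lambda-like polypeptide 1 had 2 and 31 fragments, 14.4-fold higher in gill (3.66 to 124), and the B-cell antigen receptor complex-associated protein beta chain had 0 and 11 (0.634 FPKM in gill), at least 3.40-fold higher. Their highest levels were 3.14 FPKM in spleen for the first and 27.8 FPKM in head kidney for the second. The other 14 immune members were not past 2-fold.

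Vessels and connective matrix gave 1 call each, of 3 (33.3%) and 8 (12.5%) measured members, against 16.5% of the measured named transcripts. Vascular endothelial growth factor receptor 1 had 29 fragments in nose (1.04 FPKM) and 145 in gill (4.82 FPKM), 4.64-fold higher in gill (3.10 to 7.17), with 19.0 FPKM in spleen. Biglycan, a small matrix proteoglycan, had 202 and 523 fragments (8.16 and 19.6 FPKM), 2.40-fold higher in gill (2.04 to 2.84), and nose was its next tissue. The other 7 measured matrix members, osteocalcin and tenascin among them, were not past 2-fold.

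Markers of striated muscle, retina and hair cells were summed over all named members, measured or not. The 23 muscle transcripts gave 58 fragments in nose and 358 in gill, the 13 of retina 21 and 211, and the 22 of hair cells 13 and 20. A member with no fragment in nose could be measured only through gill, so the calls that follow are a description. Of 6 measured muscle transcripts 5 (83.3%) were at 0 in nose and were called higher in gill, against 16.5% of the measured named transcripts. Titin and Myosin-7 each supplied 2 of these calls. An 8241 bp transcript of the sarcomere protein titin had 220 fragments in gill (1.40 FPKM), at least 68.0-fold higher, against 56.2 FPKM in muscle and 36.6 FPKM in heart. A 13980 bp titin transcript had 29 fragments in gill, 2 short transcripts of Myosin-7 had 26 and 25, and Transmembrane protein 182 had 13, which are at least 8.96-, 8.04-, 7.73- and 4.02-fold higher. The FPKM of each of these 4 was higher in muscle or heart than in gill. For the Myosin-7 transcripts the muscle over gill ratios were only 1.45 (0.843 to 2.51) and 1.42 (0.813 to 2.49). Their intervals allowed either tissue to be higher. The sixth, Calpain-3, had 56 fragments in nose and 28 in gill.

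Rhodopsin, the rod photopigment, had 0 fragments in nose and 180 in gill (5.74 FPKM), at least 55.6-fold higher in gill, while eye held 16459.5 FPKM. It was also found in stomach with 142 fragments, in gut with 131 and in brain with 13, and had no fragment in the other 8 libraries. Arrestin-C, of cone photoreceptors, had 0 and 12 fragments (0.362 FPKM in gill; at least 3.71-fold) and 1196 FPKM in eye. Otoferlin, which senses calcium at the synapses of hair cells, had 0 and 14, at least 4.33-fold higher in gill, and 4.62 FPKM in brain. For the photoreceptor genes the gill level was thus a very small share of that in eye. With 544342 and 41884 fragments in eye, Rhodopsin and Arrestin-C met the rule of the eye set described above. Their gill fragments are part of its count and of the retina sum, so they are not separate cases.

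The remaining named genes with the largest ratios belonged to no list. Glycoprotein hormone beta-5, a subunit of the hormone thyrostimulin, had 1338 fragments in nose (86.4 FPKM) and 11 in gill (0.658 FPKM), a ratio of 131 (73.1 to 263), and nose was its highest tissue, followed by eye at 51.2 FPKM and muscle at 30.0. Protein fosB, a subunit of the AP-1 transcription factor and an immediate early gene, had 3374 and 48 fragments (45.4 and 0.599 FPKM), a ratio of 75.8 (57.0 to 103). The nose level of fosB was 18.8-fold that of the next tissue, brain (16.1 to 22.0). The other genes of this group were fewer in fragments or were higher elsewhere.

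Soluble lamin-associated protein of 75 kDa had 1862 fragments in nose and 45 in gill (21.9 and 0.492 FPKM), a ratio of 44.6 (33.2 to 61.4), and eye matched nose with 22.0 FPKM. Thymidine phosphorylase, which degrades thymidine, had 250 and 7 fragments (6.40 and 0.166 FPKM), a ratio of 38.5 (18.4 to 96.8), with 15.8 FPKM in liver. Of 2 measured transcripts named Transcription elongation factor SPT6, a histone chaperone, the 1 with more fragments had 189 and 10 (ratio 20.4, 10.8 to 43.2), with 27.3 FPKM in brain. Nose was the highest tissue for the last 2 of the group. Fibrinogen-like protein 1 had 100 and 2 fragments (3.90 and 0.0720 FPKM; ratio 53.9, 14.5 to 451), and Polypeptide N-acetylgalactosaminyltransferase 2, which starts mucin-type O-glycosylation, had 39 and 2 (2.78 and 0.132 FPKM; ratio 21.0, 5.44 to 179.8).

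On the gill side, FH1/FH2 domain-containing protein 1, a formin that nucleates actin filaments, had 0 fragments in nose and 890 in gill, at least 275-fold higher, and gut had the next level with 5 fragments. Both transcripts of Delta-like protein B, a Notch ligand, had gill as their highest tissue. The first had 1 and 94 fragments (0.0530 and 4.60 FPKM), 87.2-fold higher in gill (15.3 to 3479), and the second had 0 and 93, at least 28.7-fold higher. UDP-GlcNAc:betaGal beta-1,3-N-acetylglucosaminyltransferase 7, a glycan-extending enzyme, was carried by 2 measured transcripts. The 1 with fewer fragments had 2 and 72 (0.0880 and 2.94 FPKM), 33.4-fold higher in gill (8.91 to 281), and no other library reached 10 fragments. The other was not among the 10 largest gill ratios. Each transcript whose fragments are given here was higher in gill than in every other tissue.

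Other gill calls had their highest level elsewhere. V-set and immunoglobulin domain-containing protein 10-like had 4 fragments in nose and 222 in gill, 51.5-fold higher in gill (19.8 to 191), with 79.6 FPKM in testis against 4.29 in gill. Integrin alpha-IIb, a fibrinogen receptor of thrombocytes, had 4 and 131 (0.101 and 3.06 FPKM), 30.4-fold higher in gill (11.6 to 113), with 84.7 FPKM in spleen. Protein AMBP, a plasma protein precursor made by liver, had 3 and 100 (0.116 and 3.57 FPKM), 30.9-fold higher in gill (10.3 to 152), with 3710.4 FPKM in liver. With 121384 fragments in liver, AMBP itself met the rule of the liver-restricted set described above, so it is not a separate case. Leucine-rich repeat-containing protein 3B had 1 and 36 fragments, 33.4-fold higher in gill (5.62 to 1355), with 11.8 FPKM in brain.

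The most abundant named transcripts did not separate the organs. The 40S ribosomal protein S14 stood at 4491 FPKM in nose and 4844 in gill, 60S ribosomal protein L3 at 2205 and 2529.5, and 60S ribosomal protein L39 at 1029.8 and 886. ADP/ATP translocase 2, the nucleotide exchanger of mitochondria, was at 1175 and 1803 FPKM (nose over gill 0.652, 0.643 to 0.661), and Thymosin beta-11, an actin-binding peptide, was at 865 and 1155 (0.749, 0.735 to 0.764). All 5 lay within 2-fold.

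Levels in the other 11 tissues did not enter the calls, although the names rest on matches over all 13 libraries. The shares with nose or gill highest, and the 100-fold shares further below, set these tissues against the levels that made the calls. A call for a high level in an organ raises in advance the share with that organ highest. These shares are therefore not independent of the calls. Nose was the highest of the 13 libraries for 1435 of the 3555 transcripts higher in nose (40.4%), and gill for 511 of the 2090 higher in gill (24.4%). Among the named ones the counts were 27 of 63 and 31 of 91. Over all 21065 measured transcripts, nose or gill was the highest library for 4074 (19.3%). The highest of the other 11 tissues was brain for 26.2% of the nose-higher transcripts, 17.8% of the gill-higher ones and 21.1% of all measured, and spleen for 24.2%, 12.6% and 18.6%. Heart and muscle took 10.7% and 10.6% of the gill-higher transcripts, 4.02% and 3.12% of the nose-higher ones and 4.75% and 2.91% of all measured. Kidney took 8.28% of the gill-higher set against 2.62% of the nose-higher set and 4.92% of all. These shares are a description of transcripts, which are not independent of each other, and no test was made.

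**Figure D3:**
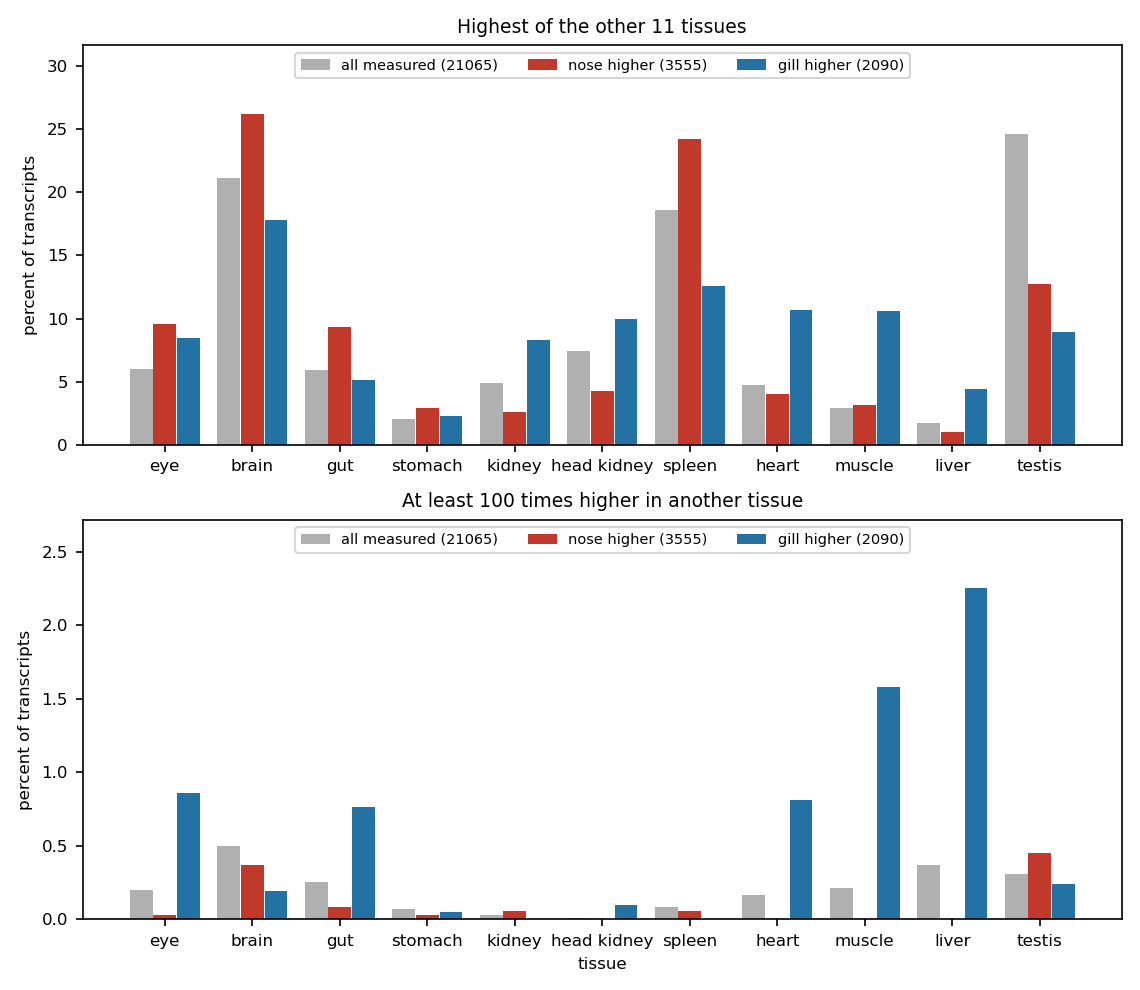
Percent of all 21065 measured transcripts (grey), of the 3555 higher in nose (red) and of the 2090 higher in gill (blue). The upper panel counts transcripts by the highest of the other 11 tissues, with brain at 26.2% of the nose-higher set, and the lower panel counts those at least 100 times higher in that tissue than in nose and gill, which stand out for liver and muscle in the gill-higher set.

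A transcript at least 100 times higher in another tissue than in either organ was rarer among the nose-higher set (38, 1.07%) and more frequent among the gill-higher set (143, 6.84%) than over all measured transcripts (461, 2.19%). Of those 143, 47 had their highest level in liver, 33 in muscle, 18 in eye, 17 in heart and 16 in gut, and of the 38 in the nose-higher set none had it in liver, muscle or heart, and 16 had it in testis and 13 in brain. Rhodopsin, Arrestin-C and AMBP are named examples in gill.

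**Figure D4:**
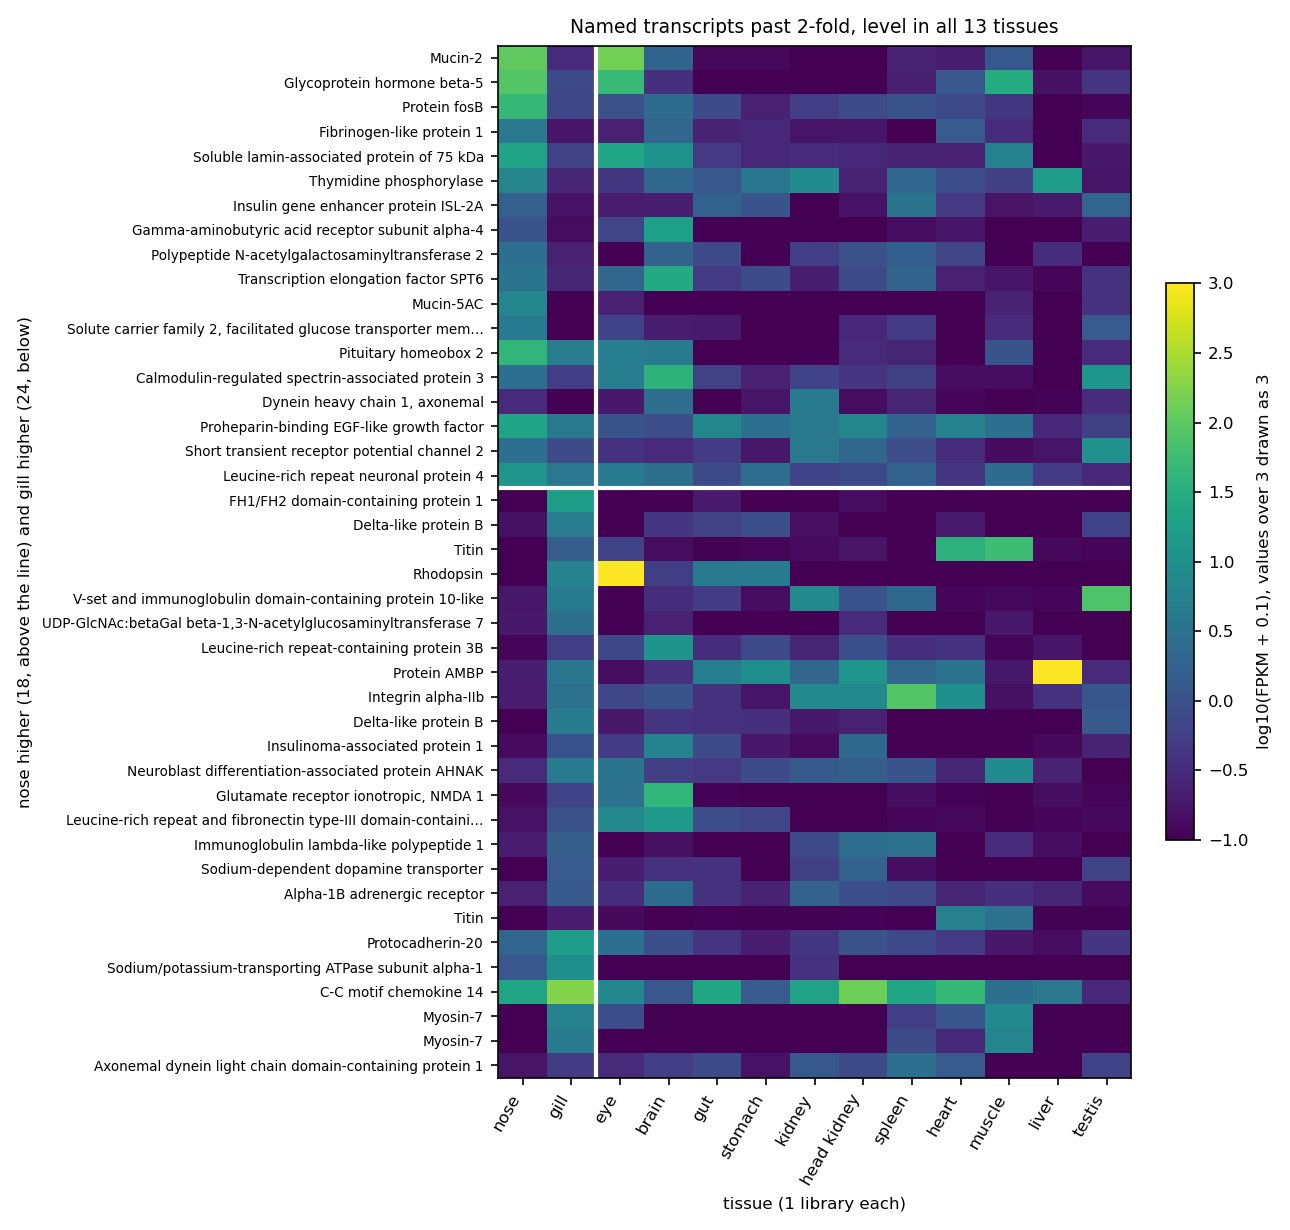
Level in all 13 libraries of called transcripts chosen by the naming rule, as log10 of FPKM plus 0.1, with values over 3 drawn as 3. Above the line are the 18 chosen transcripts higher in nose. Below it are the 24 with the largest ratios among the 39 chosen transcripts higher in gill. Nose and gill stand in the first columns, and the bright cells outside them include eye for Rhodopsin (16459.5 FPKM) and liver for Protein AMBP (3710.4 FPKM).

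Most called transcripts carried no name, and some exceeded every named one. A 1442 bp transcript had 6 fragments in nose (0.235 FPKM) and 30780 in gill (1119 FPKM), 4757-fold higher in gill (2185 to 12963), and a 1188 bp transcript had 2 and 11745 (0.0950 and 518 FPKM), 5445-fold higher (1507 to 44968). Neither reached 1 FPKM in another tissue. In nose, a 918 bp transcript had 343 fragments against 1 (21.1 and 0.0570 FPKM; ratio 369.9, 66.0 to 14653), and its next tissue, brain, had 1.58 FPKM. A 1662 bp transcript had 556 against 1 (18.9 and 0.0320 FPKM; ratio 599.6, 107 to 23726), with 58.2 FPKM in eye.

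Abundant unnamed transcripts, 2 in each direction, were chosen after their values were seen. A 522 bp transcript stood at 212 FPKM in nose and 17567 in gill, 82.7-fold higher in gill (79.1 to 86.5), and eye followed with 37.4 FPKM. A 1207 bp transcript stood at 656 and 20855, 31.8-fold higher in gill (31.3 to 32.3), but was higher still in kidney (41031), head kidney (25701) and heart (22313). In nose, a 1799 bp transcript stood at 8434 FPKM against 1249 in gill (ratio 6.75, 6.69 to 6.82) and 1831 in muscle, and a 2805 bp transcript at 8636 against 2235 (3.86, 3.84 to 3.89) and 4608 in eye.

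A few further named genes, also chosen after their values were seen, were well covered in both libraries. In nose, Nuclear factor 7, brain, had 3384 fragments against 442 in gill (ratio 8.26, 7.48 to 9.14), brain fatty acid-binding protein, a marker of glia in vertebrates, had 1487 against 239 (6.71, 5.85 to 7.72), and cGMP-dependent 3,5-cyclic phosphodiesterase had 1494 against 349 (4.62, 4.11 to 5.20). Matrix metalloproteinase-19 had 674 against 39 (18.6, 13.5 to 26.4). In gill, the lipid carrier Apolipoprotein D had 9433 fragments against 2161 in nose (gill over nose 4.05, 3.86 to 4.24), and connective tissue growth factor had 2337 against 506 (4.28, 3.89 to 4.72). Hemopexin, a plasma protein made by liver, had 272 against 24 (10.5, 6.91 to 16.7), with 5920.4 FPKM in liver.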

How the data were processed

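RNA from each organ was sequenced once as paired-end reads, which the study trimmed with Trimmomatic and assembled with Trinity into 1 reference set of 38696 transcripts, and each library was mapped back to it. The sources used here do not name the program that mapped and counted the reads. The authors deposited raw fragment counts per transcript, and the authors also deposited FPKM, these counts divided by transcript length and by the library total.

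Ratios were formed from the deposited counts over the library totals (17686055 in nose, 19073857 in gill), with exact conditional-binomial 95% intervals, a minimum of 10 fragments in either library and a floor of 3 fragments where a library had none. The calculation was tested on simulated data. Intervals cover counting error only. Names came from the study's supplementary expression tables, of which 1999 rows each were at hand. A row of the first was matched by its 13 fragment and FPKM values (817 names). A gene model of the second was paired where its 13 fragment values matched within 0.1% (109 names added). In a rule chosen after seeing the data, it was also paired where its 13 values were nearly a constant multiple of those of a single transcript (299 names added). Each value could depart from the multiple by 2 standard deviations of counting error plus 10% plus 2 fragments. The multiple could lie between 0.2 and 2, and the length ratio could depart from it by 1.5-fold. The 102 pairs by the multiple that were already named otherwise had the same name. Only 4 of these had been named from the first table, and the rest from the same second table, which is a weak check. Of the 550 measured names 198 came from the first table and 352 from the second, 262 of them by the multiple.

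The members and the 19 gene lists were chosen with earlier results of these data known. The genes named were the 10 largest ratios in each direction, up to 5 called members of a list in each direction, every measured chemosensory and ion transport member, the 5 most abundant in each organ and 2 unnamed transcripts in each direction. Others are marked as chosen after their values were seen. Alternatives were the call rule, the minimum, the scaling (totals, TMM, median of ratios, TPM, totals without the 100 most abundant transcripts), the value used for 0, and the names. TMM factors came from edgeR 4.0.16 (R 4.3.3), intervals from scipy 1.17.1 under Python 3.11.15, tables from pandas 2.3.3 and figures from matplotlib 3.10.9. No sequences are printed, since no sequence file was used here.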

Additional observations from a re-analysis of the deposited data

How the results depend on the processing

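No paired analysis was possible because each tissue had 1 library, so no replicate number could be shared within a group and no result came from a test. The number of transcripts called moved with the rule. Against 3555 in nose and 2090 in gill, a point ratio of at least 2 gave 6005 and 3213, an interval past 4-fold gave 1056 and 893, and an interval that excluded 1 gave 9739 and 6111. A minimum of 50 fragments gave 2357 in nose. Of the list members (113 measured, 11 higher in nose, 31 in gill), names from the first supplementary table only left 63, 7 and 16, pairs by exact equality 70, 7 and 19, pairs within 0.1% without any by the multiple (added after seeing the data) 71, 7 and 19, and a minimum of 50 fragments 67, 6 and 18. Their median log2 ratio of -0.17 became -0.44 with the median of ratios.

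With an interval past 4-fold, nose was the highest of 13 tissues for 58.5% of its calls and gill for 29.0%, and in gill the share with brain as the highest other tissue was 14.7% and the share 100 times higher elsewhere 9.63%. With 50 fragments these gill values were 27.1%, 15.4% and 4.93%, and in nose brain took 22.9% and the 100-fold share was 0.297%. No call changed direction with the median of ratios or without the 100 most abundant transcripts, but values near parity did. With the median of ratios 60S ribosomal protein L39 went from 1.16 to 0.963, and the list medians of epithelial, motile cilia and matrix genes from 0.09 to -0.18, 0.13 to -0.14 and 0.13 to -0.14. Names from the first table only turned the medians of ciliary base (0.49 to -0.19) and axon guidance (-0.17 to 0.55), exact pairs that of immune proteins (-0.51 to 0.37), and the minimum of 50 those of epithelial (-0.11) and synaptic genes (-1.65 to 0.01). The call of Short transient receptor potential channel 2 was lost with the median of ratios (3.08). Counting 1 transcript per name lowered the gill calls of the epithelial list from 3 to 1 and of the muscle list from 5 to 3. The causes of these shifts, other than fewer names, fewer transcripts or another scale, were not tested. With few fragments, as for most cilia, channel and chemosensory genes, small differences could not be detected.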
